A study of Mus musculus with 6 samples.

Results

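A set of 10 genes that mark reactive astrocytes and tissue injury was followed in hippocampal RNA of methamphetamine (MA)-treated and control mice. The genes were Vim, Serpina3n, Lcn2, Cd44, Osmr, Timp1, Cd14, S100a10, Stat3 and Socs3, chosen by symbol, and all 10 have a row among the 16060 rows of the deposited expression table. The MA group held 3 libraries from C57BL/6 mice given MA at doses that escalated from week to week. The control group held 3 libraries from C57BL/6 mice given saline. The study's methods describe adult males, killed right after open field and elevated plus maze tests. Each RNA-seq library was taken to be the hippocampal tissue of 1 mouse, which is assumed from the labels. In such bulk tissue, more cells of a type and more RNA per cell cannot be told apart.

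Astrocytes answer injury and inflammation by building intermediate filaments and by secreting protease inhibitors and acute phase proteins. A main route to this state runs from cytokines of the interleukin-6 family, through receptors that share the chain encoded by Il6st, to Jak kinases and the transcription factor Stat3. Socs3 is switched on by Stat3 and in turn blocks the Jak kinases. Several of these genes are also used by endothelial cells, microglia and cells of the brain's borders, so their level in whole tissue is not a measure of astrocytes alone.

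The binding element of Stat factors has the letters TTCNNNGAA, which read the same on both strands. RefSeq promoter windows of 300 bases, from 250 before to 50 after a gene's start on GRCm38.p6, were found for 8 of the 10 genes, and only the Socs3 window among these 8 held the letters. Of all 32851 such windows, 8.30% held them. The match lies 154 to 146 bases before the RefSeq start of Socs3. The stretch chr11:117969452-117969616 on the minus strand holds no annotated exon, though it lies inside the GENCODE gene of Socs3, whose annotated start at 117970047 is further upstream. It is shown because Socs3 is the read-out of Stat3 in this group of genes, with the match in capitals.
Socs3: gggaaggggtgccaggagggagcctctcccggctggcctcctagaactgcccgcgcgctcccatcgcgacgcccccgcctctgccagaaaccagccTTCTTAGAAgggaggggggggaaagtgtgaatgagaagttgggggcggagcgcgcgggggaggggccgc
A match of letters is a description of the sequence and not of binding.

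None of the 10 genes passed the test between the groups after adjustment. Levels are given on the log2 scale of the deposited table, which is scaled per gene length, and a log2 fold change is the MA mean minus the control mean on that scale. At an adjusted p-value under 0.05 (limma, Benjamini-Hochberg over all 13321 tested genes), 0 of the 10 were called, where 0.263% of all tested genes were. At an unadjusted p-value under 0.05 there was 1, S100a10, which was higher in MA, against 10.4% of all tested genes (4.99% higher and 5.46% lower in MA). Of the 10, 5 had a higher mean in MA, as did 47.3% of all tested genes, and 5 a lower mean, and the median log2 fold change was -0.01, beside a median of -0.01 over all tested genes. The median size of the difference, whatever its sign, was 0.14 for the 10 genes and 0.11 for all tested genes. The groups did not overlap for 2 genes, S100a10 (higher in MA) and Cd14 (lower in MA), where 17.5% of all tested genes did not overlap (7.32% with MA higher and 10.2% with MA lower).

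**Figure D1:**
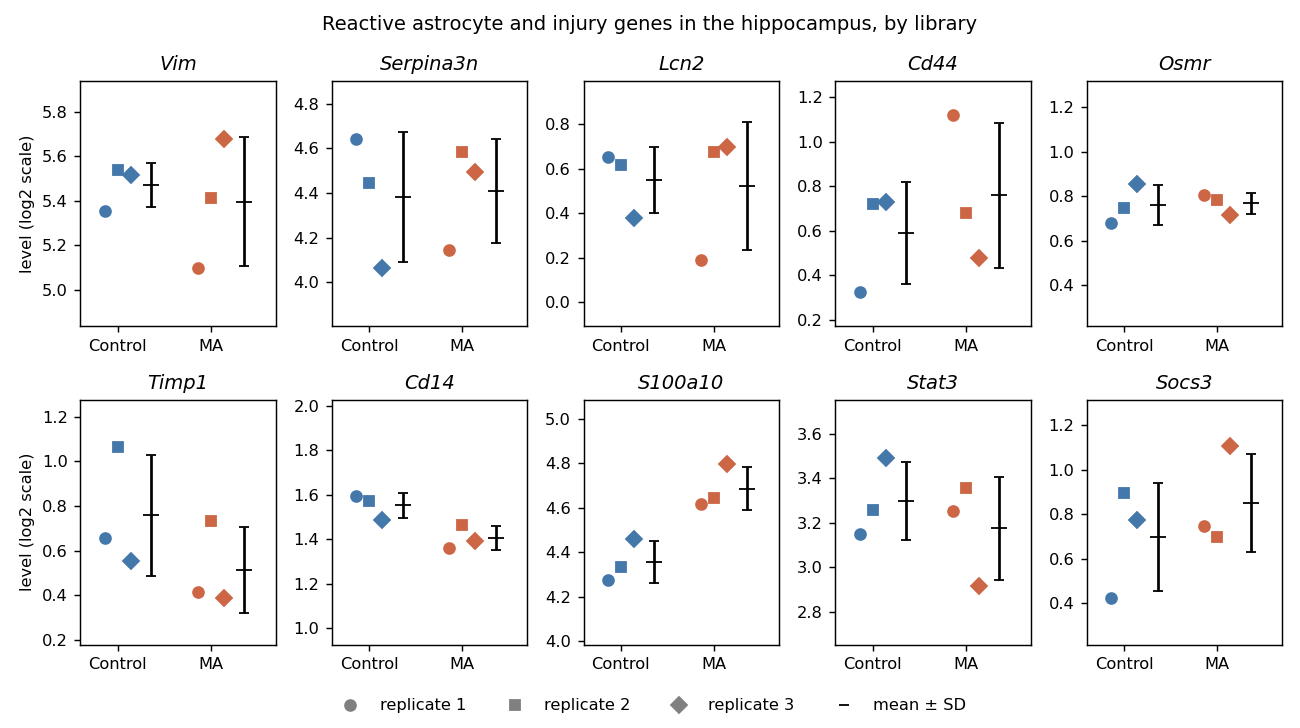
Level of each of the 10 genes (y axis, log2 scale; every panel spans the same range) in the 3 control and 3 MA libraries, with 1 point per library and the mean ± SD (n = 3) beside it. The MA points lie above all control points for S100a10 and below all of them for Cd14, and the groups overlap in the other 8 panels.

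Before the genes are taken in turn, the libraries need a description. The table holds normalized values and no read totals, so the depth is unknown, and its highest value of 12.30 is shared by all 6 libraries. The library labelled MA replicate 3 stood apart, with a limma sample weight of 0.194 against 0.937 to 2.45 for the others. Its floor was 0.000206 in place of 0, with 397 genes at that value, a number within the 259 to 437 that the other 5 listed at 0. Hippocampal neurons were represented in every library, with Prox1, a marker of dentate granule cells, at 3.26 to 3.67 and Slc17a7, the vesicular glutamate transporter of excitatory neurons, at 9.09 to 9.38. Markers of choroid plexus, the epithelium that makes cerebrospinal fluid, had a higher mean in MA for 10 of 10 genes, of which 6 were called. Their summed back-transformed level was 65.1 to 421 in control and 1783 to 5089 in MA, with Ttr, which encodes transthyretin, at 5.87 to 8.68 and 10.77 to 12.30. Blood markers, the globins and Alas2, had a higher mean for 5 of 5, with 3 called and summed levels of 1599 to 2024 in control and 3319 to 4378 in MA. With 1 library left out, the number called ran from 0 to 9 for choroid plexus and from 0 to 5 for blood, both highest without MA replicate 3, and with no filter it was 0 for both. No gene of either list was at 0 in any library. The part of these tissues in the values below was not tested.

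The intermediate filament gene and the genes of secreted proteins are the classical signs of gliosis, and none of these passed the test. Vim, which encodes vimentin, the filament that reactive astrocytes share with endothelial and border cells, was the most abundant of the 10. Its levels were 5.36, 5.54 and 5.52 in control replicates 1, 2 and 3 and 5.10, 5.41 and 5.68 in MA replicates 1, 2 and 3. The MA libraries held both the lowest and the highest of the 6 values, and the SD was 0.29 in MA and 0.10 in control (n = 3 each). The log2 fold change was -0.07 (95% interval -0.42 to 0.27, limma adjusted p = 0.911). Without MA replicate 3 it was -0.21, with a limma adjusted p of 0.296, and without MA replicate 1 it was 0.07.

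Serpina3n, a secreted serine protease inhibitor that rises steeply in many injured brains, was well expressed in both groups. Its levels were 4.64, 4.44 and 4.06 in the control libraries and 4.15, 4.59 and 4.49 in the MA libraries. A control library was both the highest and the lowest of the 6, and the log2 fold change of 0.03 (95% interval -0.38 to 0.43) was smaller than the SD of 0.29 in control and 0.23 in MA. On the fold scale the interval ran from 0.767 to 1.35. Serpina3n belongs to a cluster of closely related genes, between which reads could be split, so its level is uncertain.

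Lcn2, which encodes the iron-siderophore carrier lipocalin-2, was at the low end of what could be tested. It stood at 0.65, 0.61 and 0.38 in control and 0.19, 0.68 and 0.70 in MA, the lowest mean level of the 10 genes, above only 0.27% of all tested genes. The MA libraries spanned the whole control range, with a log2 fold change of -0.03 (95% interval -0.42 to 0.37). At such levels the log2 scale with its offset compresses differences, and with a pseudocount of 0.1 or 0.01 in place of the offset the fold change was -0.16 or -0.25 and still did not pass (limma adjusted p of at least 0.739 over all alternatives).

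Timp1, an inhibitor of matrix metalloproteases that injured tissue releases, had the most negative log2 fold change of the 10. Its levels were 0.66, 1.07 and 0.55 in control and 0.41, 0.73 and 0.39 in MA. MA replicates 1 and 3 lay below all control libraries and MA replicate 2 lay above 2 of them, so the groups overlapped. The difference of the means was -0.25 on the log2 scale with a standard error of 0.17 (adjusted p = 0.683 from limma), and it was below 0 under each alternative, from -0.09 to -0.59 and -0.69 with a pseudocount of 0.1 and 0.01. Timp1 passed the filter on low values through 2 control libraries and 1 MA library, the minimum of 3.

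At the cell surface, Cd44, the hyaluronan receptor of reactive and migrating cells, stood at 0.33, 0.72 and 0.73 in control and at 1.12, 0.68 and 0.48 in MA. MA replicate 1 was the highest of the 6 libraries, while MA replicate 3 was below 2 control libraries. Its difference of 0.17 (95% interval -0.29 to 0.63) turned with that library: without MA replicate 1 it was -0.01, and without MA replicate 3 it was 0.31. With a pseudocount of 0.1 or 0.01 the difference was 0.38 or 0.45 (limma adjusted p of 0.840 and 0.839). The range over the 6 libraries, 0.79, was the widest of the 10 genes on the deposited scale.

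Osmr, the receptor chain for oncostatin M and a sensitive marker of the Stat3 route, spanned the narrowest range of the 10 on the deposited scale. Its levels were 0.68, 0.75 and 0.85 in control and 0.81, 0.78 and 0.71 in MA, a range of 0.17 over the 6 libraries. All 3 MA values fell within the control range. The log2 fold change was 0.01 (95% interval -0.24 to 0.26, limma adjusted p = 0.989). The standard error of 0.11 grew to 0.23 with a pseudocount of 0.1 and to 0.26 with 0.01, so this narrow interval belongs to the deposited scale.

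Cd14 encodes the co-receptor that presents lipopolysaccharide to Tlr4, and in brain it is carried mainly by microglia. It was 1.60, 1.57 and 1.49 in control and 1.36, 1.46 and 1.39 in MA. Each MA library was below each control library, with a gap of 0.02 between the nearest pair. The difference of the means, -0.15, had a standard error of 0.10 and a 95% interval of -0.38 to 0.08, and did not pass (limma adjusted p = 0.673). The exact permutation test gave 0.1 (two-sided), the smallest p that 3 against 3 allows. The direction was the same in each of its 14 alternatives, from -0.23 to -0.12, and no alternative gave an adjusted p under 0.398. The spread of Cd14 within groups, an SD of 0.06 and 0.05, was at percentile 3.79 among the tested genes nearest to it in level (250 on each side). Microglia markers gave 6 higher and 6 lower of 12, with 0 called and summed levels of 297 to 324 in control and 309 to 317 in MA. Aif1, the microglial gene that encodes Iba-1, was -0.43 on the log2 scale with overlapping groups (limma adjusted p = 0.582). By staining for the Iba-1 protein, the paper reports more microglia after MA. Tlr4 was under the filter, at 0.12 to 0.43 over the 6 libraries.

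S100a10 was the gene with the smallest p of the 10, and on the deposited scale its difference was also the largest in size. With a pseudocount of 0.1 or 0.01 the differences of Timp1, Cd44 and Socs3 were larger than that of S100a10, for Socs3 only narrowly at 0.1. S100a10 encodes p11, a calcium-binding-family protein that pairs with annexin A2 at the plasma membrane and carries receptors and channels to the cell surface. It is counted among the genes of astrocytes after ischaemia. The levels were 4.27, 4.33 and 4.46 in control replicates 1, 2 and 3 and 4.62, 4.64 and 4.80 in MA replicates 1, 2 and 3. The MA libraries were all above the control libraries, with a gap of 0.15 between the nearest pair and an SD of 0.10 in each group. The log2 fold change was 0.33 (standard error 0.09, 95% interval 0.11 to 0.55), a 1.26-fold higher level on that scale. The unadjusted limma p was 0.00853, rank 390 of 13321, and the adjusted p of 0.290 did not pass. The exact permutation test gave 0.1 (two-sided), the smallest possible value. Without MA replicate 3 the log2 fold change was 0.27 with a limma adjusted p of 0.117, and a replicate block in the fit gave an adjusted p of 0.684. Over 15 alternatives its value lay between 0.27 and 0.38, the unadjusted p between 0.00357 and 0.0370, and the adjusted p between 0.0604 and 0.764.

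S100a10 (ENSMUSG00000041959) is annotated at chromosome 3, 93555080 to 93564643 (GRCm38, plus strand), with 3 annotated transcripts over 4 exonic stretches, and no other annotated exon overlaps it. Anxa2, the gene of its binding partner, is known to keep p11 stable as a protein. Its levels were 3.52, 3.47 and 3.16 in control and 3.34, 3.30 and 3.38 in MA, a log2 fold change of -0.04 (95% interval -0.32 to 0.23). Markers that stood higher in MA with S100a10 included those of choroid plexus and blood given above. Ttr was 5.87, 7.39 and 8.68 in the control libraries and 10.77, 11.14 and 12.30 in the MA libraries, by replicate number. This is the order of S100a10 over the 6 libraries. Not every such marker kept that order. In MA replicates 1, 2 and 3, Folr1 of choroid plexus was 3.28, 4.17 and 2.94, and the globin gene Hbb-bs was 10.34, 9.96 and 10.27. The astrocyte marker Fgfr3 was 0.62 higher on the log2 scale (limma adjusted p = 0.219) with groups that did not overlap. Astrocyte markers as a list gave 5 higher and 7 lower of 12. Cldn5, the tight junction gene of brain endothelium, was 0.30 higher (limma adjusted p = 0.241), also with groups that did not overlap. All 6 endothelial markers had a higher mean in MA, with a median of 0.09 and 0 called, and their summed level was 140 to 159 in control and 153 to 177 in MA. Meningeal fibroblast markers had a higher mean for 8 of 8, 0 called, with summed levels of 65.5 to 86.3 in control and 135 to 237 in MA, and Dcn, Igf2 and Igfbp2 among them had log2 fold changes of 1.30, 1.26 and 1.31 with groups that did not overlap, while that of Col1a2 was 0.16 with overlapping groups. Ependymal markers had a higher mean for 4 of 5, a median of 0.51 and 0 called, with summed levels of 27.9 to 45.0 in control and 31.5 to 55.2 in MA. The part of these cells in the S100a10 level was not tested.

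**Figure D2:**
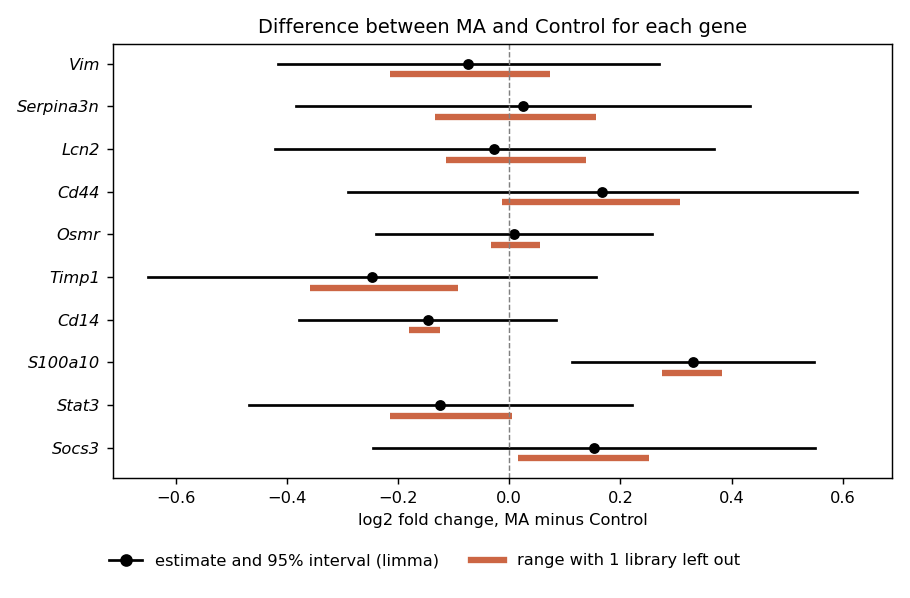
Log2 fold change of MA minus control for each gene (x axis; black point with the 95% interval from limma) and the range of that value when 1 library at a time was left out (orange bar). The interval excludes 0 for S100a10 alone, from 0.11 to 0.55, before any adjustment for the number of genes tested.

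Stat3 and its inhibitor Socs3 were read together as the core of the signalling route. Stat3 was 3.15, 3.26 and 3.49 in control and 3.25, 3.36 and 2.91 in MA. Only MA replicate 3 lay outside the control range, below it, and the log2 fold change of -0.12 (95% interval -0.47 to 0.22, limma adjusted p = 0.833) became 0.01 without that library. Stat3 shares exonic sequence with Stat5a on the other strand of chromosome 11, and the sources do not say whether counting used strand, so its reads are uncertain. Socs3 was 0.43, 0.90 and 0.77 in control and 0.75, 0.70 and 1.10 in MA. Here too MA replicate 3 stood outside the control range, above it, while control replicate 1 was the lowest of the 6. The log2 fold change was 0.15 (95% interval -0.25 to 0.55, limma adjusted p = 0.819), and without MA replicate 3 it was 0.03, while a pseudocount of 0.1 or 0.01 gave 0.34 or 0.40. In MA replicate 3, Stat3 was the lowest and Socs3 the highest of the 6.

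**Figure D3:**
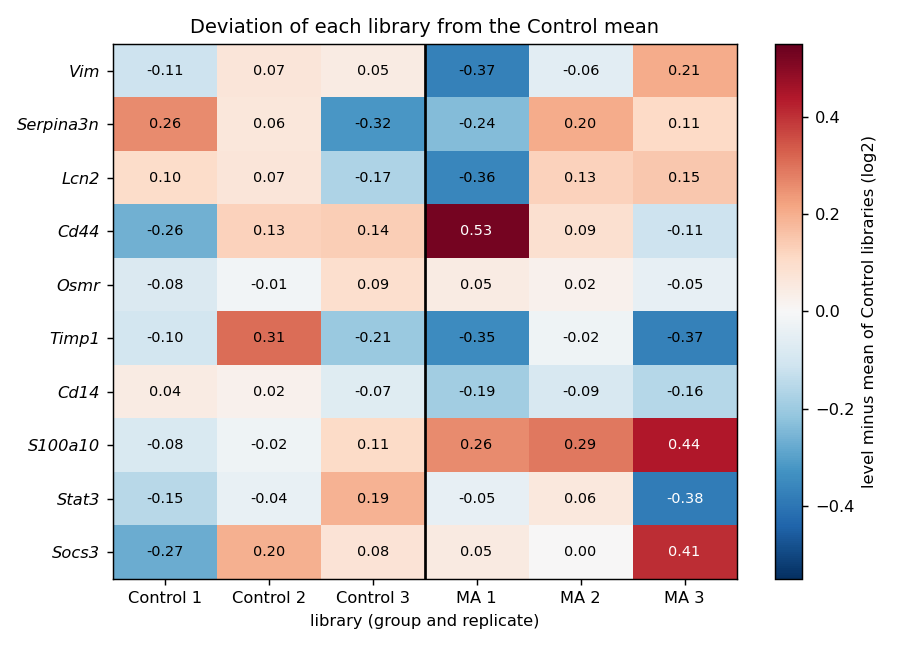
Level of each gene in each library minus the mean of the 3 control libraries (log2 scale; red above, blue below; the line separates control from MA). S100a10 is above the control mean in all 3 MA libraries and Cd14 below it in all 3, with groups that do not overlap. Timp1 is also below it and Socs3 above it or equal to it in all 3 MA libraries, with groups that overlap.

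Among the 6 libraries the 10 genes did not move as a block. MA replicate 3 was the highest library for 4 of them (Vim, Lcn2, S100a10 and Socs3) and the lowest for 2 (Timp1 and Stat3). MA replicate 1 was the lowest for 3 (Vim, Lcn2 and Cd14) and the highest for Cd44. Control replicate 1 was the lowest for 4 (Cd44, Osmr, S100a10 and Socs3). The number of the 10 genes above their control mean was 3, 7 and 6 in control replicates 1, 2 and 3 and 4, 7 and 5 in MA replicates 1, 2 and 3, so the counts overlapped between the groups.

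The order of levels over all 6 libraries ran from Vim (5.43), S100a10 (4.52), Serpina3n (4.40) and Stat3 (3.24) through Cd14 (1.48) to Socs3 (0.77), Osmr (0.76), Cd44 (0.67), Timp1 (0.64) and Lcn2 (0.53). Vim was above S100a10, Serpina3n above Stat3, Stat3 above Cd14 and Cd14 above Socs3 in 6 of 6 libraries. S100a10 exceeded Serpina3n in 4 of 6, a mean difference of 0.12 with an SD of 0.32, so these neighbours did not differ beyond their spread. Neighbours among the 5 lowest genes did not separate from each other in this sense either, with mean differences of 0.01 to 0.10 and SDs of 0.23 to 0.39.

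The wider reactive astrocyte programme was read from lists of other genes. Gfap, the filament that defines reactive astrocytes, was 6.94, 6.97 and 6.85 in control and 6.94, 6.77 and 6.71 in MA, a log2 fold change of -0.11 (95% interval -0.31 to 0.09, limma adjusted p = 0.725). By staining and western blot, which measure protein and not RNA, the paper reports GFAP raised by MA. Its figure legend places the western blot in treated astrocytes and does not name hippocampal tissue for it. Of 9 genes listed as common to reactive astrocytes 7 were tested, 4 higher and 3 lower, and 1, Nes, was called. Nes, which encodes nestin, the filament of neural progenitors and some reactive astrocytes, was 2.10, 2.10 and 2.45 in control and 1.07, 1.04 and 1.01 in MA. The MA libraries lay far below control, with a log2 fold change of -1.18 ± 0.13 (standard error) and an adjusted p of 0.0315 from limma. The call was lost in 5 of the 6 fits with 1 library left out, all but that without MA replicate 3 (limma adjusted p of 0.0274 to 0.115), under the replicate block (0.106) and with all low genes kept (0.0683), while the difference stayed at -1.06 or lower. Hspb1, a small heat shock protein gene, had a log2 fold change of -1.27 with groups that did not overlap (limma adjusted p = 0.0785). It has a pseudogene copy that makes its count uncertain. The paper counts Hspb1 among the genes it calls upregulated in MA, so the direction in the deposited values is the opposite. Its list of those genes is headed control against MA-treated mice, and the heading does not say which group a positive value favours. The other genes of that list were not compared with the deposited values here. The source of the opposite direction for Hspb1 was not tested. Steap4 and Cxcl10 of this list were under the filter.

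Of the 11 genes ascribed to neurotoxic astrocytes all were tested, with 6 higher, 5 lower and 0 called, and 0 at an unadjusted p under 0.05. C3, the complement component used as the sign of that state, was 0.58, 0.18 and 0.71 in control and 0.84, 0.37 and 0.76 in MA, and its groups overlapped. Fkbp5, which binds the glucocorticoid receptor complex, had the smallest p of the list, with a log2 fold change of 0.27 (limma adjusted p = 0.478). Of the 10 genes ascribed to the trophic state, to which S100a10 and Cd14 are also assigned, 6 were tested, 2 higher and 4 lower, with 0 called. Cd109, a surface protein that holds back TGF-beta signalling, and Emp1, an epithelial membrane protein, had log2 fold changes of -0.48 and -0.30, each with MA libraries all below control. Neither passed, at 0.266 and 0.458 (limma, adjusted p).

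Around Stat3, the cytokines and receptors gave 7 tested genes of 11, with 4 higher, 3 lower and 0 called. Il6, the founding ligand, was at the floor of the library in 4 libraries, all 3 MA libraries among them, and at 0.10 and 0.16 in control replicates 1 and 3. By qPCR, a different measure, the paper reports IL-6 raised by MA in the hippocampus. Il6st, the shared receptor chain, and Lifr, the receptor chain for leukaemia inhibitory factor, had log2 fold changes of -0.11 (95% interval -0.41 to 0.18) and 0.05 (95% interval -0.27 to 0.38). Ctf1, the ligand cardiotrophin-1, had the largest value of the list at 0.53 (limma adjusted p = 0.481). Of the Jak kinases and other Stat factors 7 of 8 were tested, 1 higher and 6 lower, with 0 called, and Jak1 and Jak2 were at -0.05 and -0.12. Of 14 Socs, Pias and Ptpn inhibitors 7 were higher and 7 lower, with 0 called. Socs4 was the 1 of these with an unadjusted p under 0.05, at -0.27 (limma adjusted p = 0.458), and its groups did not overlap.

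Among binding partners and relatives, 17 of 21 were tested, with 12 higher, 5 lower and 0 called. Slc22a17, a receptor for lipocalin-2, was 8.01, 8.08 and 8.02 in control and 8.36, 8.32 and 8.15 in MA, a log2 fold change of 0.24 (limma adjusted p = 0.380) with groups that did not overlap. Timp2 and Timp4, relatives of Timp1, had log2 fold changes of 0.77 and 0.41, opposite in sign to that of Timp1. Both had overlapping groups and did not pass (adjusted p of 0.442 and 0.466, limma). Over the 7 lists together 69 of 84 genes were tested, 36 higher and 33 lower, 8 of them (11.6%) with an unadjusted p under 0.05 beside the 10.4% of all tested genes.

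**Figure D4:**
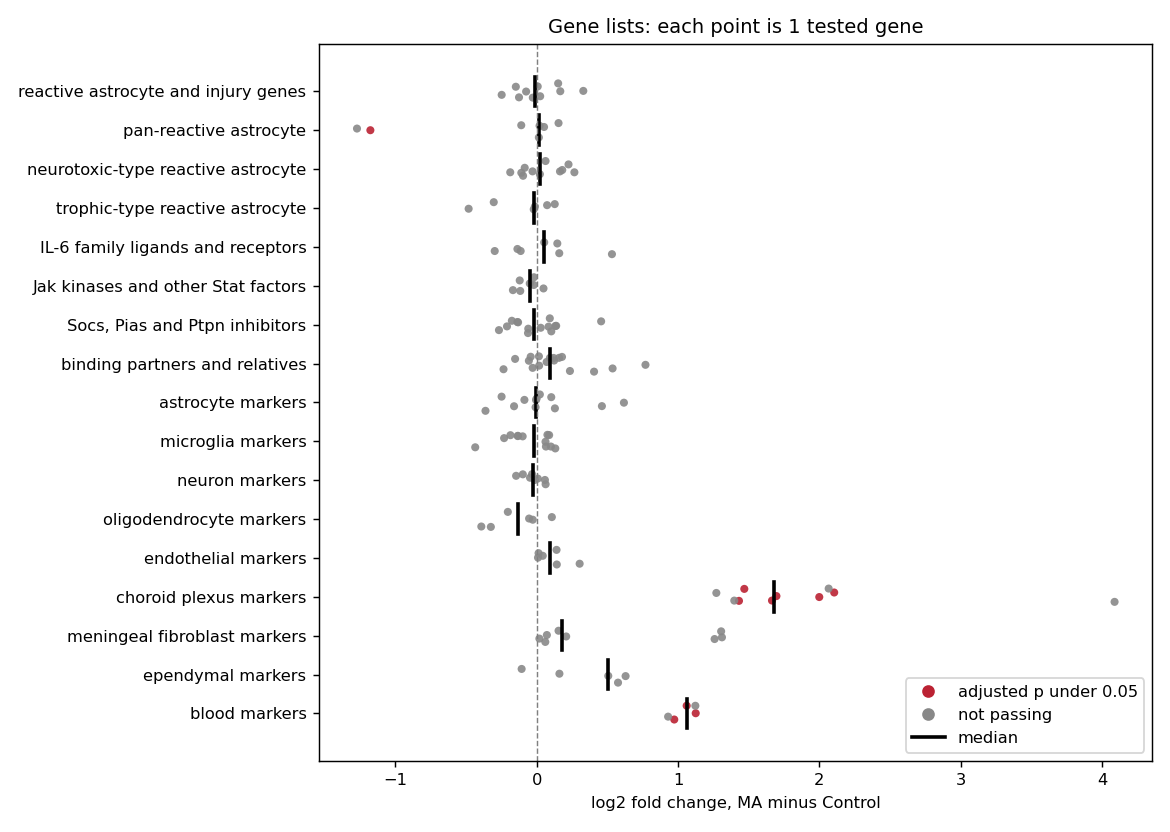
Log2 fold change of MA minus control (x axis) for every tested gene of each list (rows), with the median as a bar and genes at an adjusted p under 0.05 (limma) in red. The reactive astrocyte lists have medians near 0, though Nes and Hspb1 of the pan-reactive list lie far to the left, at -1.18 and -1.27. The choroid plexus and blood markers lie to the right, with medians of 1.68 and 1.06.

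Astrocyte markers listed apart from the reactive genes gave 5 higher and 7 lower of 12, with 0 called and a median of -0.0022. Aldh1l1, an enzyme gene found in most astrocytes, had a log2 fold change of -0.16 (limma adjusted p = 0.734). Aqp4, the water channel of astrocyte endfeet, was -0.36 with MA libraries all below control, and Fgfr3, a growth factor receptor gene of astrocytes, was 0.62 with MA libraries all above (limma adjusted p-values of 0.458 and 0.219). The summed level of the 12 markers was 1987 to 2183 in control and 1734 to 2482 in MA.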

How the data were processed

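RNA-seq was measured in 3 control and 3 MA hippocampal samples, taken as 1 library per mouse. The paper's methods name alignment with Hisat2, counting per gene with featureCounts and conversion to FPKM, and DEGs called with DESeq2 by the authors. The submitters' processing notes list Bowtie 0.12.2 and the builds mm8 and mm9, with no roles. The methods name RNA-Bee and an NEB Next kit, whereas the labels name Qiagen and TruSeq kits. Although the file the authors deposited carries RPKM in its name, its values are on a log scale, read as log2 with an offset of 1 inferred from the lowest value of 0, and had been brought to a near common distribution. Neither step nor the log base is stated. Depth is unknown, and 0 columns were left unmatched.

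The 13321 genes that reached 0.5 after back-transformation in 3 or more libraries were tested as deposited with limma 3.58.1 in R 4.3.3 (lmFit, eBayes with trend), MA against control, without covariates. The 10 genes and the lists were chosen with earlier results of these data known. The rule for other genes was those called, at most 3 of a list with the smallest p, and a few set by name. Alternatives were other pseudocounts, filters, scalings and weights, a replicate block and each library left out. On 10 simulated tables of 13321 genes for 3 libraries against 3, 200 genes were shifted by a log2 change of 1. The fit recovered 79.75% (median) of them, and 4.05% of its calls were false. That shift is larger than any difference of the 10 genes, so the recovery of differences as small as theirs was not measured. The simulated errors were independent, with no library set apart, so the false share need not hold for these libraries. Same-numbered libraries were not paired by any label, and replicates of separate mice are assumed from the labels. GENCODE M21 coordinates on GRCm38 are given for location only.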

Additional observations from a re-analysis of the deposited data

How the results depend on the processing

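Of the 144 fits of a single gene under an alternative, 0 gave an adjusted p under 0.05 (limma), and S100a10 had an unadjusted p under 0.05 in 15 of 15. These alternatives reuse the same libraries and are not replication. Over them, the number of tested genes with an unadjusted limma p under 0.05 ran from 829 (without Control replicate 1) to 3504 (sample quality weights). The sign of the log2 fold change turned for 7 of the 10 genes in 14 fits, at most 0.14 in size and with a limma adjusted p of at least 0.820: Osmr was -0.0042 under quantile normalization, and with sample quality weights Stat3 was 0.0081 and Socs3 -0.0051. With 1 library left out, the ranges that crossed 0 were -0.21 to 0.074 for Vim, -0.13 to 0.16 for Serpina3n, -0.11 to 0.14 for Lcn2, -0.013 to 0.31 for Cd44, -0.032 to 0.055 for Osmr and -0.22 to 0.0055 for Stat3. Such values near 0 carry no direction. With a minimum mean of 5 only 4 of the 10 genes could be tested, and 2 of them were higher in MA. The count called among all tested genes was 35, and it was 3 with no filter, 20 with a minimum mean of 5, 586 with sample quality weights and 0 to 257 with 1 library left out: 0 without Control replicate 2 or 3 or MA replicate 2 (where 911, 1011 and 1031 genes had an unadjusted limma p under 0.05), 3 without Control replicate 1, 15 without MA replicate 1 and 257 without MA replicate 3. A replicate block in the fit gave 15. Across genes, libraries that share a number did not deviate together within their groups (r of -0.197, -0.242 and -0.337), so the block has no basis in the labels or the data. Without read totals, differences in the 5 genes of lowest level cannot be told from counting error.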
